A study of Mus musculus with 36 samples.

Results

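Spata18 was examined because it holds the tile whose 5-methylcytosine (5mC) level had been found furthest above WT in HET brains on the control diet, and every CpG of its gene body and of 5 kb on each side was read across Tet1 genotypes and maternal diets. Spata18 (ENSMUSG00000029155.16) lies on the + strand at chr5:73651379-73679512 of mm10, and the interval read was chr5:73646379-73684512. The interval held 202 of the 3615677 CpGs listed in any library. Of these, 191 were covered 5 or more times in at least 1 of 35 embryos and 35 were covered 5 or more times in all of them. The gene was selected on the 1 kb tile chr5:73669001-73670000 in the 3 ppm embryos, where HET brains had 62.9% ± 13.3 (SD, n = 3) and WT brains 30.0% ± 5.44 (n = 4) over 9 CpGs. Any comparison that uses WT or HET embryos on 3 ppm is therefore given as a description, and tests of genotype rest on the embryos of the other diets. KO embryos on 3 ppm took no part in the selection and enter the tests of diet and phenotype.

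The study profiled single brains of E11.5 mouse embryos of the 129S6.Cg-Tet1<tm1Koh> strain by oxidative bisulfite RRBS, in which 5mC is read as methylated and its oxidised forms are not. As the study describes it, the targeted allele carries a cassette at the first coding ATG of Tet1 that removes the full-length transcript, with a short isoform still weakly expressed. All embryos had Tet1 HET dams, fed folic acid (FA) at a surplus of 30 ppm, at 0.1 ppm as depletion, or at 3 ppm as control. Each of these diets also held the antibiotic succinyl sulfathiazole. By their titles, embryos were WT (n = 3, 4 and 2 on 30, 3 and 0.1 ppm), HET (n = 5, 3 and 3) or KO (n = 6, 5 and 5), from 12 litters. Summed over CpGs, 35 libraries held 25.6 to 197 M calls. The shallowest library, a HET embryo on 0.1 ppm with 23.2 M calls, entered no main comparison. Embryos are separate animals, but several share a litter.

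Spata18 encodes the mitochondria-eating protein Mieap, a p53-induced regulator of mitochondrial quality control whose gene symbol comes from spermatogenesis. TET1 oxidises 5mC, a step on the way to unmethylated cytosine, and binds CpG-rich DNA. Genes with CpG island promoters are usually unmethylated at the 5' end and methylated along the body. Whole brain tissue holds many cell types, so a change in the share of a cell type and a change within its cells cannot be told apart at an intermediate level.

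Genotype labels were checked on Tet1 itself. Among 151 CpGs of the Tet1 gene body covered in at least 30 embryos, chr10:62884019 had the widest gap between KO and WT on 3 ppm. There, WT embryos of that diet had 0% to 7.32%, HET 30.0% to 47.4% and KO 72.0% to 93.8%. The HET range rests on 3 embryos with 10 to 19 reads, and of the 7 HET embryos compared on the other diets 1 was inside it, 5 below and 1 above (8.33% to 69.2%). On those diets, 3 WT and KO libraries had values inside this HET range, against their label, while the other WT libraries had 0% to 6.25% and the other KO libraries 69.6% to 100%. KO replicate 1 on 30 ppm had 45% at 20 reads, with a 95% Wilson interval of 25.8 to 65.8%. WT replicate 2 on 30 ppm had 36.36% at 33 reads (22.2 to 53.4%), and WT replicate 2 on 0.1 ppm 40% at 15 reads (19.8 to 64.2%). HET replicate 1 on 30 ppm had 8.33% (24 reads, 2.32 to 25.8%), next to the WT range, and HET replicate 1 on 0.1 ppm had 69.2% (13 reads, 42.4 to 87.3%), next to the KO range. The study's own embryo list gives KO replicate 1 on 30 ppm as HET, against its title, so its group sizes on that diet differ from those given here. It gives both of the WT libraries above as WT, as their titles do. All libraries were kept under the genotype of their titles. KO replicate 1 on 30 ppm therefore counts as KO in every main value, and no test was run with it as HET. KO replicate 1 on 30 ppm and these WT libraries are called here the 3 doubted libraries. Tests of genotype and fits over all tiles are also given without them. Single-embryo values, litter counts and single CpGs with no such value beside them are given under the labels only. The check is a 5mC level and not a reading of the allele, and HET embryos outside the HET range were kept. Leaving out WT libraries with a high level and a KO library with a low one can by itself widen the gaps. Values without the 3 doubted libraries are therefore descriptions, and their p-values are not further support.

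3 stretches of the gene with unlike 5mC levels are shown, with each CpG in capitals. Whether their sequence relates to these levels was not tested. The first is the island promoter up to the base before the annotated start, where 3 of the CpGs in capitals count as covered. The CpGs around the start that were covered in all embryos compared were almost unmethylated in every genotype. The second is the part of exon 7 that is coding in every protein-coding transcript and that holds 7 of the 9 CpGs measured in the tile, beginning at the annotated start codon of the shorter transcript Spata18-203. The third is an intron stretch that was methylated in every genotype and serves as contrast. All are on the + strand of GRCm38.p6 (mm10), the promoter from the RefSeq promoter table and the others read from the genome of that build.
Promoter, chr5:73651130-73651378: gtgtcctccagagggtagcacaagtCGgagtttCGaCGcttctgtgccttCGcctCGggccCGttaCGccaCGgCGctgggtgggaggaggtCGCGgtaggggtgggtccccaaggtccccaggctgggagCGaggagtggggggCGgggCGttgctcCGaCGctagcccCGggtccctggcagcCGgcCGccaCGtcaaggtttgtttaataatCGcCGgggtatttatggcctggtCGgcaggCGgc
Exon 7, coding part, chr5:73669590-73669733: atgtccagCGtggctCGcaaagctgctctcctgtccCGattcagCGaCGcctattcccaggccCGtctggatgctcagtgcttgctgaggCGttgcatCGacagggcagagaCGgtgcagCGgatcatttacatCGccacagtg
Intron, chr5:73663433-73663531: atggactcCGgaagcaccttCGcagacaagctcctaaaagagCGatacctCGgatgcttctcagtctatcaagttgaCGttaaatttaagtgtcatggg
The promoter stretch held 24 CpGs in 249 bases (9.64 per 100 bases), the coding part of exon 7 held 11 in 144 (7.64 per 100 bases) and the intron stretch 5 in 99 (5.05 per 100 bases). Over the whole exon 7 (chr5:73669439-73669733, 295 bases) the GC content was 63.7% with 22 CpGs and an observed to expected CpG ratio of 0.754, against 43.399% and 0.276 over the whole gene. Within the printed stretches the ratio was 0.862 in the promoter, 0.857 in the coding part of exon 7 and highest in the intron stretch (0.936). The 9 CpGs lay 18191 to 18301 bp downstream of the annotated 5' end of the gene.

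The 9 CpGs of the tile lay within 112 bp of exon 7 and on a single fragment of 161 bp between an MspI site and a TaqI site, so they were read by the same molecules and are not independent of each other. Each of the 9 was covered 5 or more times in 34 of the 35 embryos. KO replicate 5 on 30 ppm, a library of 47.7 M calls, had no read in the tile, and its level is missing from every tile value below. Duplicate reads had been removed by molecular identifiers, and the embryos had 5 to 75 reads per CpG with a median of 10. Intervals given for single embryos treat each read as 1 molecule and cover counting error only. Over the 9 CpGs they use the median reads per CpG, with the methylated share rounded to whole reads. Such an interval can therefore belong to a slightly different level than the one given.

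On 3 ppm, the diet on which the gene was selected, levels over the 9 CpGs were 35.8%, 26.6%, 33.3% and 24.3% in WT replicates 1 to 4. HET replicates 1 to 3 had 52.1%, 77.8% and 58.9%, and KO replicates 1 to 5 had 83.3%, 87.9%, 77.8%, 88.7% and 70.7%. No WT value reached a HET value, while HET and KO values overlapped, since HET replicate 2 was level with KO replicate 3 and above KO replicate 5. As a description, KO brains had 81.7% ± 7.53 (n = 5), so the HET mean stood 63.7% of the way from the WT to the KO mean.

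On 30 ppm, WT replicates 1 to 3 had 35.3%, 54.6% and 2.02%, the second being a library against its label. HET replicates 1 to 5 had 26.3%, 67.9%, 50.8%, 60.1% and 49.2%, and KO replicates 1, 2, 3, 4 and 6 had 36.73%, 82.2%, 88.9%, 77.8% and 69.8%. Without the libraries against their labels, the remaining 4 KO embryos all stood above the 5 HET embryos, while HET replicate 1 stood below WT replicate 1. WT replicate 3 was the least methylated embryo of the series at these CpGs, with 11 reads per CpG and an interval of 0 to 25.9%.

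On 0.1 ppm, WT replicates 1 and 2 had 16.7% and 56.2%, the second being a library against its label. HET replicates 1 and 3 had 54.2% and 71.9%, and KO replicates 1 to 5 had 88.8%, 81.7%, 81.9%, 88.9% and 78.9%. Every KO embryo stood above both HET embryos.

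**Figure D1:**
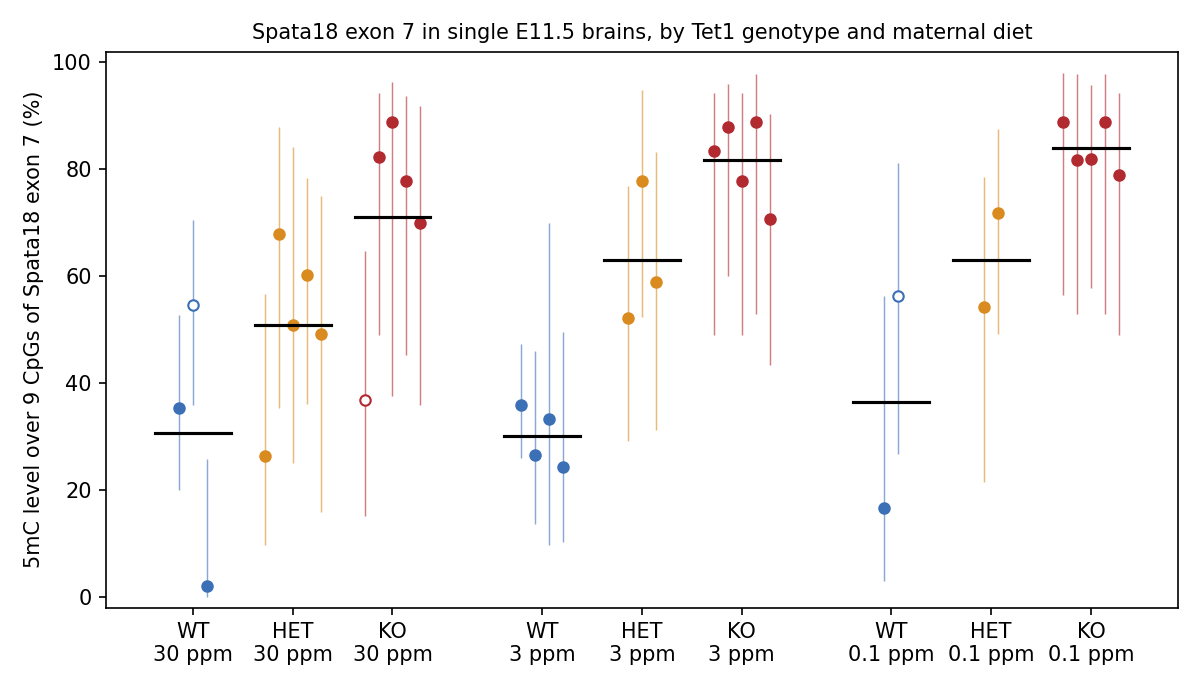
Level of 5mC over the 9 CpGs of Spata18 exon 7 (y axis, %) in each embryo, by genotype and diet (x axis). Points are embryos, black bars group means and open points the 3 libraries whose Tet1 value went against their label. Vertical lines are 95% Wilson intervals on the median reads per CpG, with methylated reads rounded to whole reads. Apart from the open points, KO embryos sit between 69.8% and 88.9% on every diet.

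In the test of KO against WT, exon 7 was more methylated in KO brains. A tile level was the methylated share of all reads at the CpGs covered 5 or more times in that embryo, because no CpG of the tile was covered in all 35 embryos. In 21 embryos these were exactly the 9 CpGs, and in 13 they included others. With these levels, KO embryos of 30 and 0.1 ppm had 77.9% ± 15.6 (n = 10) and WT embryos 37.3% ± 22.4 (n = 5), and the mean of the differences within each diet was 39.3 percentage points (two-sided exact permutation test within diet, p = 0.00255, Benjamini-Hochberg adjusted over 19 exact tests 0.0485). Of the 10 KO embryos, 9 stood above every WT embryo. Over the 9 CpGs alone the difference was 44.0 points (exact p = 0.0017). With the 3 doubted libraries left out it was 55.5 points, with 9 KO and 3 WT embryos and the smallest p this design allows (exact p = 0.0111). Within litters it was 39.1 points (labels permuted within litter, exact p = 0.0556, smallest possible 0.0139). A coverage minimum of 10 reads left 5 KO and 4 WT embryos, some of them with CpGs outside the 9 alone, and a difference of 13.9 points (exact p = 0.475), or 28.9 points over the 9 CpGs with 4 and 3 embryos (exact p = 0.4, smallest possible 0.1).

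HET embryos had an intermediate mean, and their difference from WT did not pass the test with all libraries under their labels. They had 55.9% ± 14.8 (n = 7), 20.2 points above WT as the mean of the differences within diets (two-sided exact permutation test, p = 0.0804, adjusted 0.254), and 4 of 7 stood above every WT embryo. Over the 9 CpGs the difference was 23.4 points (exact p = 0.0893), without the 3 doubted libraries 32.1 points (exact p = 0.0317) and within litters 8.15 points (exact p = 0.583). A coverage minimum of 10 reads left 4 HET and 4 WT embryos and a difference of 4.43 points (exact p = 0.733), or 12.6 points over the 9 CpGs with 3 embryos each (exact p = 0.6). The within-litter value rests on 3 litters of these diets. One of them has as its WT embryo a library against its label. KO exceeded HET by 19.1 points (exact p = 0.00907, adjusted 0.0862), by 20.6 points over the 9 CpGs (exact p = 0.0068) and by 23.4 points without the 3 doubted libraries (exact p = 0.000378), and 8 of 10 KO embryos stood above every HET embryo. With the adjusted value this comparison did not pass, while an embryo that the study lists as HET was counted as KO. Within litters KO exceeded HET by 21.1 points (exact p = 0.0208).

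By diet, the gap of KO over WT was 38.9 points on 30 ppm (two-sided exact permutation test, p = 0.0714) and 39.7 points on 0.1 ppm (exact p = 0.0476, the smallest that 5 against 2 embryos allow). Neither passed after adjustment (0.254 and 0.226). HET exceeded WT by 19.7 points on 30 ppm (exact p = 0.286) and by 20.7 on 0.1 ppm, where 2 against 2 embryos cannot give an exact p below 0.167. Leaving out the 3 doubted libraries, KO and HET exceeded WT on 30 ppm by 59.9 and 32.0 points (exact p = 0.0667 and 0.0952), and on 0.1 ppm by 51.1 and 32.1 points with 1 WT embryo left. Over each embryo's own CpGs, the HET mean stood 50.6% of the way from WT to KO on 30 ppm and 52.1% on 0.1 ppm, and 53.4% and 62.8% without the 3 doubted libraries. These shares are descriptions over few embryos. Without WT replicate 3 on 30 ppm, HET exceeded WT on that diet by 4.48 points and KO by 23.7. Paired by litter over the 9 CpGs, the KO mean was above the WT mean in 8 of 8 litters, by 23.2 to 72.1 points, and above the HET mean in 8 of 8, by 7.01 to 36.596 points. The HET mean was above the WT mean in 4 of 5 litters, between -5.38 and 46.6 points. These litter counts include the 3 ppm litters on which the gene was selected and are not a test.

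**Figure D2:**
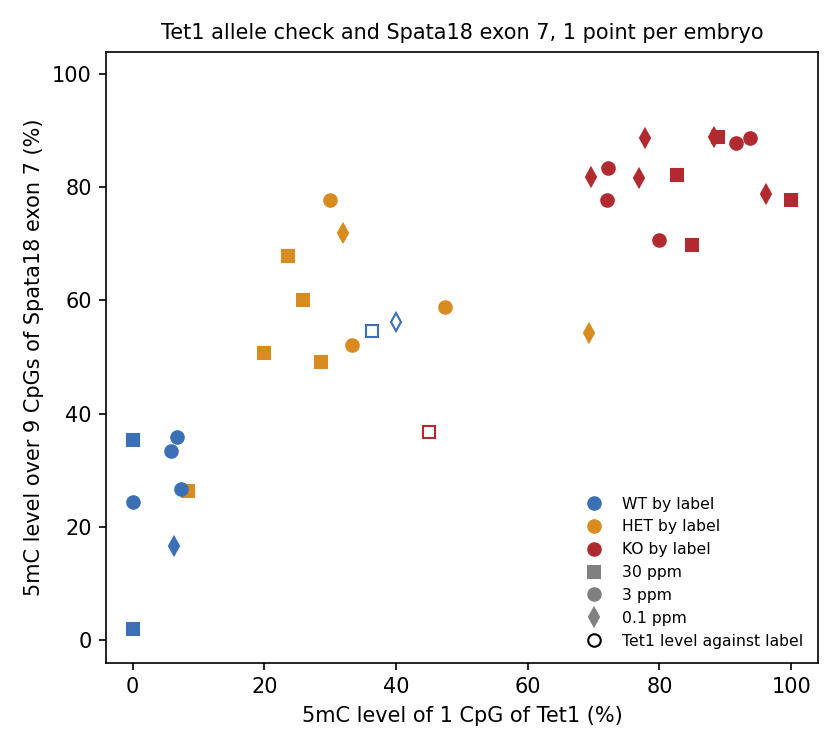
Level of 5mC at the CpG of Tet1 used as label check (x axis, %) against the level over the 9 CpGs of Spata18 exon 7 (y axis, %), 1 point per embryo for 34 embryos, with genotype as colour and diet as shape. Open points are the 3 libraries against their labels, at 36.36% to 45% on the x axis and 36.73% to 56.2% on the y axis.

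All 9 CpGs had the same order of genotypes. Means over all diets were ordered WT, HET, KO at each of the 9, and the same order held at 9 of 9 CpGs on 30 ppm, on 3 ppm and on 0.1 ppm when each diet was taken alone. With the 3 doubted libraries left out the order held at 9 of 9 CpGs as well, over all diets and on each diet. These counts are a description, since the 9 CpGs were read by the same molecules. The tile was also selected for HET above WT on 3 ppm, and those embryos enter the means over all diets. In WT embryos (n = 9) the lowest mean was 19.1% ± 17.8 (SD) at chr5:73669653 and the highest 39.3% ± 23.1 at chr5:73669570. In KO embryos (n = 15) the lowest means were 66.8% ± 15.8 at chr5:73669653 and 67.2% ± 23.9 at chr5:73669581, and the highest was 87.8% ± 12.4 at chr5:73669680. The CpG at chr5:73669653 was thus the lowest of the 9 in all genotypes, HET included (43.434% ± 20.9, n = 10). It had 12.9% in WT (n = 7) and 69.5% in KO (n = 14) without the 3 doubted libraries, again the lowest.

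The step from WT to HET took a different share of the step from WT to KO at different CpGs, from 36.8% at chr5:73669581 to 70.0% at chr5:73669680, and from 41.03% to 70.1% at the same CpGs without the 3 doubted libraries. At chr5:73669680 means were 30.7% in WT, 70.7% in HET and 87.8% in KO, while at chr5:73669581 they were 31.6%, 44.7% and 67.2%. The spread between embryos at single CpGs (SD of 12.2 to 23.9 points) is wide, and differences between CpGs were not tested. In the coding stretch printed above, the CpG at chr5:73669598 is the first in capitals, and the CpG at chr5:73669680 is the one within ggCGtt.

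**Figure D3:**
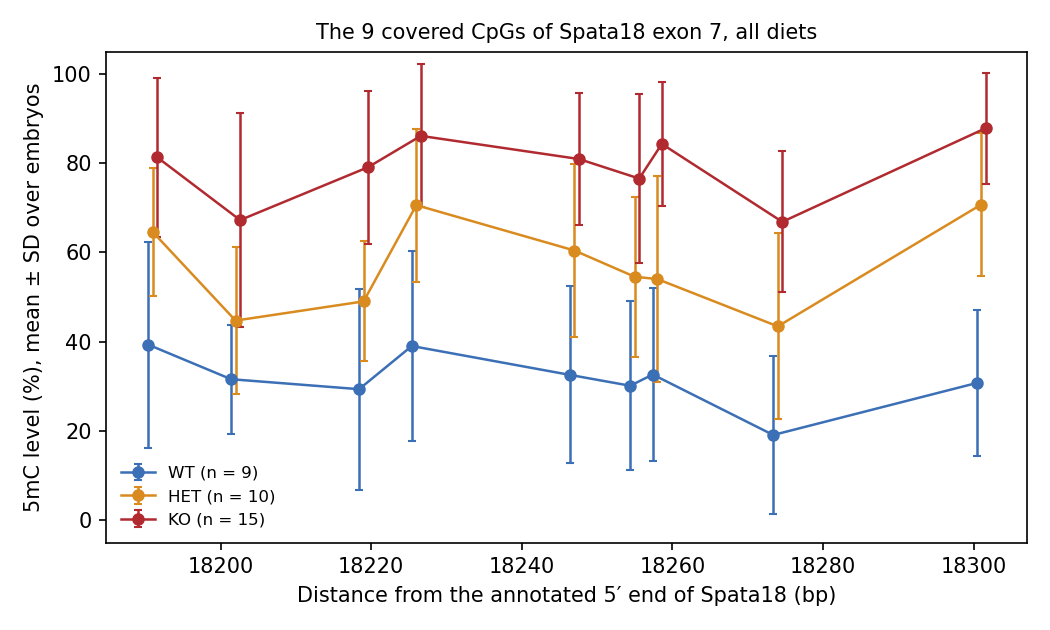
Mean 5mC level with SD over embryos (y axis, %) at each of the 9 CpGs of exon 7 by distance from the annotated 5' end of Spata18 (x axis, bp), for WT (n = 9), HET (n = 10) and KO (n = 15) embryos of all diets. The WT line lies below the HET line and the HET line below the KO line at all 9 CpGs.

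Few other CpGs of the tile were read. The CpG at chr5:73669060, in the intron before exon 7, was covered 5 or more times in 9 embryos and was highly methylated in each genotype, with means of 85.5% in WT (n = 5), 95.5% in HET (n = 2) and 85.8% in KO (n = 2). It entered the level of embryos that cover it and raised that of WT replicate 1 on 0.1 ppm from 16.7% to 33.3%, the widest gap between both ways of reading the tile (16.7 points). The CpG of the MspI site itself, at chr5:73669527, was covered 5 or more times in 8 embryos, with means of 42.6% in WT (n = 4), 36.67% in HET (n = 2) and 100% in KO (n = 2).

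No difference between diets within a genotype passed the test at exon 7 with all libraries. In KO embryos the tile level was 71.3% ± 20.5 on 30 ppm (n = 5), 81.7% ± 7.53 on 3 ppm (n = 5) and 84.4% ± 4.31 on 0.1 ppm (n = 5). The difference of 30 from 0.1 ppm was -13.2 points (two-sided exact permutation test, p = 0.175), and -4.53 points without the library labelled KO replicate 1 (exact p = 0.294). Without KO replicate 3 on 30 ppm the same difference was -17.6 points (exact p = 0.0317). The difference of 30 from 3 ppm was -10.4 points (exact p = 0.357), or -1.77 without KO replicate 1 (exact p = 0.714), and that of 0.1 from 3 ppm 2.76 points (exact p = 0.444). HET embryos differed between 30 and 0.1 ppm by -13.4 points (5 and 2 embryos, exact p = 0.333) and WT embryos by -12.4 points (3 and 2 embryos, exact p = 0.9, smallest possible 0.1). Without the 3 doubted libraries the WT difference was -13.3 points, with 2 and 1 embryos, too few for a test to pass. Without 1 embryo at a time the HET difference was -19.8 to -6.99 points and the WT difference -24.7 to 2.78, above 0 without WT replicate 3 on 30 ppm.

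Within KO brains, exon 7 was compared between embryos with and without a neural tube defect (NTD), and no difference passed the test. The 5 KO embryos labelled NTD had 82.8% ± 7.43 and the 6 labelled normal with reads in the tile 81.1% ± 7.11, a difference of 1.93 points within diets (two-sided exact permutation test, p = 0.722, smallest possible 0.0139). Leaving out 1 embryo at a time gave -5.19 points (without KO replicate 6 on 30 ppm) to 9.05 points (without KO replicate 5 on 3 ppm). KO embryos labelled inHB (n = 4), listed by the study with a brain malformation, entered neither group. KO replicate 1 on 30 ppm, which that list gives as HET, is among them. WT replicate 2 on 0.1 ppm and HET replicates 3 and 4 on 30 ppm carry the same label and stayed in the genotype comparisons. Phenotype was not a covariate there.

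The CpGs around the start were almost unmethylated in every genotype. Over the 15 CpGs within 1 kb of the annotated start that were covered in all 35 embryos, levels of the 30 and 0.1 ppm embryos were 0.564% ± 0.411 in WT (n = 5), 0.542% ± 0.321 in HET (n = 7) and 0.65% ± 0.412 in KO (n = 11). KO differed from WT by 0.134 points (exact permutation test, p = 0.484) and HET from WT by 0.0912 points (exact p = 0.69), the mean of the differences within each diet. The differences were 0.0416 and -0.0559 points without the 3 doubted libraries (exact p = 0.921 and 0.825). Further CpGs of the promoter were covered in only some embryos, were not tested and are a description. Of 34 covered in at least 25 but not all embryos, 22 had a higher mean in KO than in WT on 30 and 0.1 ppm and 6 a lower one, between -2.08 and 14.7 points. Among promoter CpGs covered in every WT and KO embryo of 30 and 0.1 ppm, the widest gap was at chr5:73650571 (-808 bp from the start), with 2.48% in WT, 2.36% in HET and 9.37% in KO on these diets. Over all diets without the 3 doubted libraries it had 2.27%, 2.56% and 8.73%. Wider gaps, named after their values were seen and given under the labels only, lay at CpGs covered in 26 embryos. On 30 and 0.1 ppm, chr5:73650595 had 5.28% in WT, 6.85% in HET and 19.98% in KO, and chr5:73650637 had 5.56%, 0.77% and 19.15%.

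In the rest of the gene body, the CpGs covered in all 35 embryos were highly methylated in every genotype. These 4 CpGs lie in the intron stretch printed above, with 94.5% ± 2.36 in WT (n = 5), 93.2% ± 2.60 in HET (n = 7) and 93.0% ± 3.45 in KO (n = 11) on 30 and 0.1 ppm. KO differed from WT by -1.23 points (exact permutation test, p = 0.464) and HET from WT by -1.62 points (exact p = 0.283), or by 0.343 and -0.48 points without the 3 doubted libraries (exact p = 0.881 and 0.825). Of these CpGs the widest gap was at chr5:73663483, with 94.6% in WT, 92.0% in HET and 91.3% in KO. Another 9 CpGs of the gene body were covered in at least 25 but not all embryos and were not tested. On 30 and 0.1 ppm, 4 of them had a higher mean in KO than in WT and 5 a lower one. The ends of this range, named after their values were seen and given under the labels only, lay in introns. At chr5:73672299 means were 63.7% in WT, 81.8% in HET and 86.6% in KO, 22.9 points apart between KO and WT, and on 3 ppm 85.7% (n = 3), 96.7% (n = 2) and 87.0% (n = 4). At chr5:73676717 they were 92.5%, 74.8% and 77.5%, with KO -15.01 points from WT, and on 3 ppm 75.1%, 90.9% and 76.7%. Downstream of the gene the CpG at chr5:73681097 had 88.2% in WT, 86.1% in HET and 87.4% in KO.

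The 5 kb before Spata18 reach into Sgcb, which encodes beta-sarcoglycan of the dystrophin complex and is transcribed from the other strand. CpGs of its first exon were nearly unmethylated, whereas those deeper in its intron, at chr5:73646588-73646936 and covered in at least 20 embryos, ranged from 9.58% in WT and 11.04% in KO at chr5:73646855 to 75.2% and 93.8% at chr5:73646936, as means over all diets. Among those covered in every WT and KO embryo of 30 and 0.1 ppm, the widest gap was at chr5:73646633, at -4746 bp from the Spata18 start, with 46.9% ± 7.75 in WT (n = 3), 54.5% ± 14.8 in HET (n = 5) and 70.5% ± 11.8 in KO (n = 6) on 30 ppm. On 0.1 ppm the same CpG had 33.9% ± 2.53 (n = 2), 52.1% ± 20.6 (n = 2) and 79.4% ± 10.3 (n = 5). On 3 ppm, which was not used to pick this CpG, it had 42.95% ± 4.40 (n = 3), 69.1% ± 2.11 (n = 3) and 77.0% ± 3.84 (n = 4). This CpG was ordered WT, HET, KO on each diet, and some neighbours in the intron were not. At chr5:73646925 HET had 64.9% and WT 71.7% on 30 ppm, and 55.7% and 81.7% on 0.1 ppm, and at chr5:73646890 HET had 26.7% and WT 50.6% on 0.1 ppm. Differences in the intron were not tested. Over all diets without the 3 doubted libraries chr5:73646633 had 42.6% ± 6.44 (n = 6), 58.4% ± 14.2 (n = 10) and 77.1% ± 6.85 (n = 14).

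**Figure D4:**
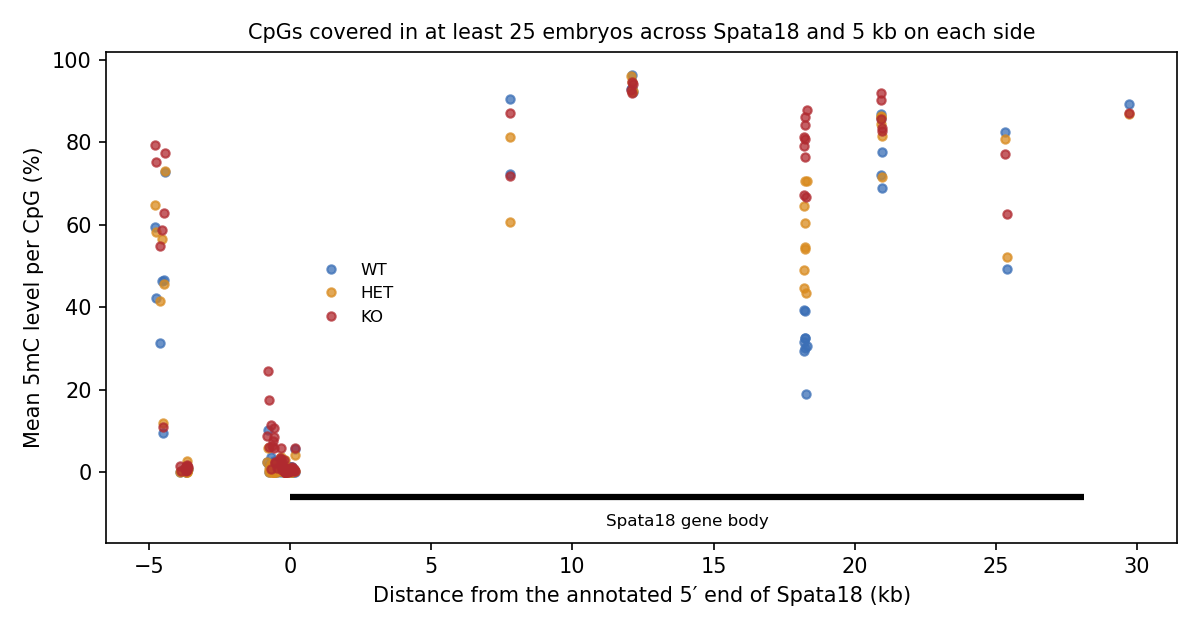
Mean 5mC level over embryos of all diets (y axis, %) at each CpG covered in at least 25 embryos, by distance from the annotated 5' end of Spata18 (x axis, kb), in WT, HET and KO brains. Genotypes overlap near 0% around the start and above 90% in the intron stretch, and are apart at exon 7, at some CpGs of the Sgcb intron upstream and at some CpGs before the start, where KO reaches 24.7% and WT 10.3% at the same CpG.

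Exon 7 was then placed among all autosomal tiles of 1 kb with at least 3 CpGs covered 5 or more times in every embryo of a comparison and an SD of at least 2 points. Reads were fitted with a quasi-binomial model with diet as covariate and a dispersion moderated as in limma, and calls needed a Benjamini-Hochberg value below 0.05 together with a gap of 10 points or more. KO against WT on 30 and 0.1 ppm called 6999 of 58185 tiles (12.0%), of which 6995 were higher in KO. The Spata18 tile could not be fitted there, since KO replicate 5 on 30 ppm has no read in it. Without that embryo 11.2% of 58298 tiles were called, and the Spata18 tile was among them, with 77.6% in KO and 33.0% in WT, a difference of 44.0 points (adjusted p = 0.00512). It ranked 41 by difference and 5705 by p. Without the 3 doubted libraries as well, 18.4% of 59451 tiles were called. The Spata18 tile then ranked 4 by difference, with 64.2 points, and 1696 by p (quasi-binomial adjusted p = 9.64e-09). The only other tile of the gene tested, that of the intron stretch, differed by -1.46 points (adjusted p = 0.501).

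HET against WT called 0 of 61441 tiles (0%), and 0 with limma on logit levels, with 4767 tiles at an unadjusted p under 0.05 in the quasi-binomial model. The Spata18 tile had 54.3% in HET and 33.0% in WT, a difference of 23.4 points (unadjusted p = 0.04 in the quasi-binomial model, adjusted 0.631). That difference ranked 2 of 61441, in embryos other than those on which the gene was selected, while by p the tile ranked 3892. The difference depended on single embryos. It was 13.5 points and ranked 238 without WT replicate 1 on 0.1 ppm, 16.2 points and 63 without WT replicate 3 on 30 ppm, and 18.97 points and 36 without HET replicate 3 on 0.1 ppm. With litter in the model the unadjusted p was 0.366. Without the 3 doubted libraries 902 of 62954 tiles were called (1.43%). The Spata18 tile was called with the widest difference of all, 39.3 points (quasi-binomial adjusted p = 0.0106), and ranked 575 by p. KO against HET called 4952 of 65306 tiles (7.58%). Without KO replicate 5 on 30 ppm it called 7.11%, the Spata18 tile included (20.6 points, quasi-binomial adjusted p = 0.0442), which ranked 1064 by difference and 8480 by p. Without the 3 doubted libraries as well, 9.38% were called and the tile differed by 24.9 points (adjusted p = 6.70e-05).

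**Figure D5:**
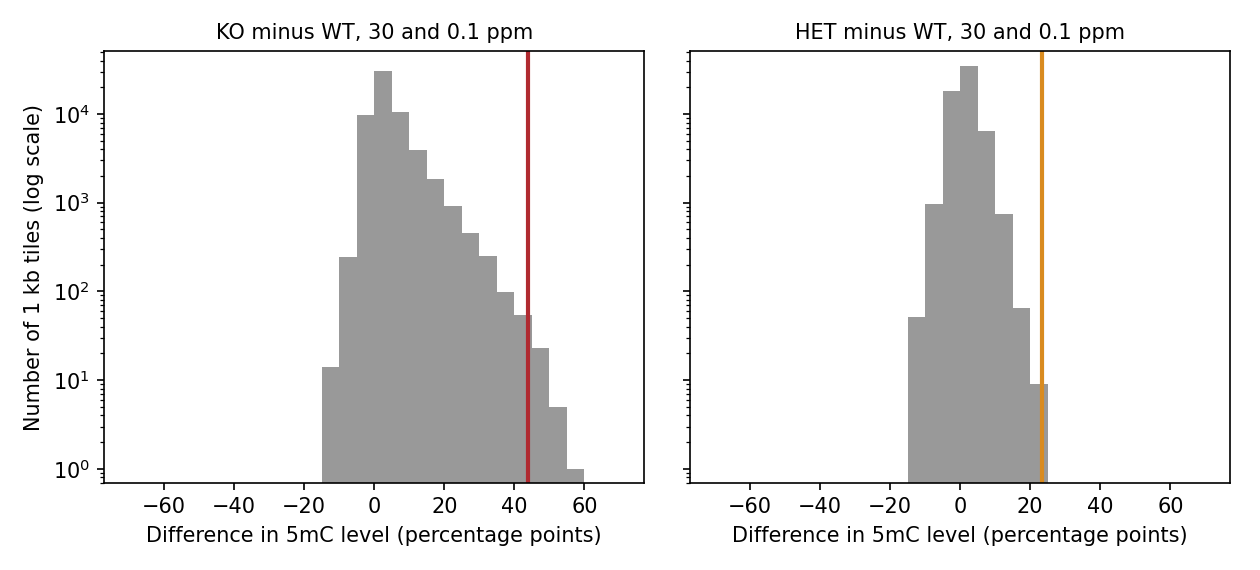
Number of 1 kb autosomal tiles (y axis, log scale) by difference in 5mC level on 30 and 0.1 ppm (x axis, percentage points, bins of 5) for KO minus WT, without KO replicate 5 on 30 ppm (58298 tiles), and HET minus WT (61441 tiles). Vertical lines mark the Spata18 tile, at 44.0 and 23.4 points, in the upper tail of both.

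Tiles whose level followed that of Spata18 over embryos most closely were those of Hk1 (Pearson r = 0.92), Cryba4 (r = 0.917), Fosl2 (r = 0.911), Zbtb7c (r = 0.909) and Hkdc1 (r = 0.907). They led 50771 tiles over the 34 embryos with reads in the Spata18 tile, all of which share their genotype groups, and the median r of all tiles was 0.345. Their r was 0.914 to 0.918 over 31 embryos without the 3 doubted libraries. The Cryba4 tile overlaps no protein-coding gene and is named by the nearest start, that of a lens crystallin gene on chromosome 5. Hk1 and Hkdc1, which encode a hexokinase and a hexokinase-like protein, lie on chromosome 10 as Tet1 does, with tiles 477 and 399 kb from it. The Hk1 tile had 37.8% ± 10.8 in WT (n = 9), 53.7% ± 5.85 in HET (n = 10) and 70.2% ± 10.3 in KO (n = 16), and 33.3% in WT (n = 7) and 72.7% in KO (n = 15) without the 3 doubted libraries. The Fosl2 tile, in the gene of a subunit of the AP-1 transcription factor, had 60.5% ± 9.03, 72.4% ± 3.10 and 86.0% ± 6.38, and 56.3% in WT and 87.3% in KO without them.

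Around Spata18, 8 protein-coding genes lie within 500 kb. No tile was called between KO and WT in the 5 of them with a tile tested (Fryl, Ociad2, Cwh43, Dcun1d4 and Usp46), and Ociad1, Lrrc66 and Sgcb had none tested. Of 33 tiles tested in this window 4 were called, all higher in KO and none inside an annotated gene, beside 12.0% of all tiles. Without the 3 doubted libraries 6 of 35 were called, beside 18.8%. The nearest was chr5:73855001-73856000, 175 kb downstream, with 87.0% in KO and 75.5% in WT (quasi-binomial adjusted p = 0.00144). The largest gap was at chr5:73360001-73361000, 290 kb upstream, with 48.6% in KO and 20.99% in WT (adjusted p = 9.73e-05). The differences were 14.1 and 36.1 points (quasi-binomial adjusted p = 0.000555 and 3.39e-08) without the 3 doubted libraries. Both were named after their values were seen.

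Genes related to Spata18 by pathway or name were counted in the same fit, each with the tiles over its body and the 1 kb before its start. Among all protein-coding genes, 3348 of 12077 tested had a tile called (27.7%), higher in KO for 3347, and the median difference of their tiles was 3.12 points. This share was 37.0% without the 3 doubted libraries. Of 24 p53 target genes, 15 were tested, 8 had a tile higher in KO and 0 lower (53.3%, median difference over tiles 4.66 points), and without the 3 doubted libraries 6 of 14. The widest gap was in Tigar, an inhibitor of glycolysis, with 76.9% in KO and 56.5% in WT, a difference within diets of 23.2 points (quasi-binomial adjusted p = 0.0147). The death receptor gene Fas had 74.0% and 53.9% (adjusted p = 0.000199), the ferredoxin reductase gene Fdxr 68.3% and 49.9%, and the kinase gene Plk2 34.6% and 16.6%. Leaving out the 3 doubted libraries, Tigar had the narrowest gap of these 4, with 14.8 points, against 26.7 in Fas, 28.6 in Fdxr and 24.7 in Plk2.

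Of 22 genes of mitophagy and mitochondrial quality control, 13 were tested, 3 had a tile higher in KO and 0 lower (23.1%, median difference over tiles 2.91 points), and 4 of 13 without the 3 doubted libraries. Among them were the autophagy receptors Optn (49.5% in KO and 34.9% in WT, quasi-binomial adjusted p = 0.00222) and Calcoco2 (47.5% and 35.16%, adjusted p = 0.00584), with differences of 23.66 and 19.37 points without the 3 doubted libraries. Of 28 other genes with a Spata symbol, which share a naming scheme and not a sequence family, 16 were tested, 4 had a tile higher in KO and 0 lower (25%, median difference over tiles 3.67 points), and 8 of 16 without the 3 doubted libraries. The widest gap was in Spata31d1d (58.8% and 26.3%, adjusted p = 0.000176, and 45.58 points without the 3 doubted libraries), and the others were Spata13, Spata20 and Spata32. With so few genes per list, nothing particular to a list is read from these shares.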

How the data were processed

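36 single E11.5 brains were profiled, and 35 entered the main comparisons. Per the labels and the study's methods, the authors trimmed MspI and TaqI reads with Trim Galore (0.6.10), aligned them to mm10 with Bismark (0.24.1), removed duplicates with UMI-tools and called methylation with Bismark. The deposited tables give, per CpG, the methylated fraction and the count of covering reads, as the authors made them. Their positions count from 0 and were raised by 1. Fraction times count was whole to within 3.64e-12 on every line, so methylated reads were recovered. The 9 deposited region lists were not used. CpGs needed 5 reads. Annotation was GENCODE on mm10.

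Levels per embryo were tested by exact permutation within diet, two-sided and adjusted by Benjamini-Hochberg over 19 tests. All autosomal tiles were fitted with a quasi-binomial model (Python 3.11.15, SciPy 1.17.1; dispersion moderated as in limma 3.58.1 under R 4.3.3 and held at 1 or above), and the model was tested on simulated data. Genotype, diet and litter come from sample titles, and replicate numbers pair no samples. Spata18, its tile, the gene lists and the tests were chosen with earlier results of these data known. Named CpGs outside the tile were those of each region with the largest absolute difference of KO from WT on 30 and 0.1 ppm among CpGs covered in every KO and WT embryo of these diets, named genes of a list the up to 4 genes with the largest difference among called tiles, and alike tiles the 5 highest by r. Further CpGs of the promoter, gene body and Sgcb intron, the MspI site and chr5:73669060 were named after their values were seen. The values of 1 gene named by this rule are not reported here. Alternatives were coverage, CpG weights and sets, tile position, covariates, litter, limma, and leaving out embryos. The 9 shared CpGs, the diet and phenotype tests without single embryos, and fits without KO replicate 5 on 30 ppm were chosen after seeing the data.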

Additional observations from a re-analysis of the deposited data

Results flagged for a closer look

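Of the groups of 4 to 10 embryos tested for a single embryo far from the rest, over the tile, the promoter and the remaining gene body, 1 was marked. The promoter level of KO replicate 2 on 3 ppm was 2.14%, against 0.272% to 0.767% in the other 4 KO embryos of that diet. Chance marks about 1 in 20 such groups, and 15 groups were tested.

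The HET embryo on 0.1 ppm that was left out for its depth was marked because it gives a signal in data that the main comparisons do not use. It had a tile level of 64.9%, above both WT embryos of that diet (33.3% and 56.2%).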

How the results depend on the processing

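Over 347 alternatives, 302 were counted as unchanged, since they kept the side of the threshold (for counts, within 1.5 times). Of these alternatives, 250 left out 1 embryo at a time, with 227 unchanged, and of the 97 others 75 were unchanged. The count includes alternatives that could not change, such as HET against WT on 0.1 ppm, where no exact p can pass. It is therefore no measure of how firm a result is. KO against WT at the tile no longer passed at 10 reads, with the tile moved 500 bp down, or with litter as block. A change of direction was also counted as unchanged where neither value passed, as for HET against WT on 0.1 ppm with a minimum of 10 reads. None reversed a result past its threshold. A coverage minimum of 10 reads left the 9 CpGs in 20 of 34 embryos, and in 3 further embryos only CpGs outside them. With it KO exceeded WT by 13.9 points as the mean of the differences within diets (exact p = 0.475), 27.1 on 30 ppm and 0.767 on 0.1 ppm. KO exceeded HET by 9.5 points as that mean, 16.3 on 30 ppm and 2.71 on 0.1 ppm. HET exceeded WT by 4.43 points as that mean (exact p = 0.733), 10.8 on 30 ppm and -1.94 on 0.1 ppm. At this minimum the fit called 4398 tiles for KO against WT and 3168 for KO against HET. Over the 9 CpGs at that minimum, chosen after seeing the data, KO exceeded WT by 28.9 points (4 and 3 embryos, smallest possible exact p 0.1) and HET by 12.4, and HET exceeded WT by 12.6. With the tile start moved 500 bp towards lower coordinates, which leaves out the 9 CpGs, KO exceeded WT by 5.34 and HET by 0.589, and HET exceeded WT by 4.75. With litter as replicate block KO exceeded WT by 39.1 points (exact p = 0.0556), and the fit called 14 tiles for HET against WT. This block was run only for the tile level over both diets and for the fits over all tiles, and no other of these results left the limits given above. Including the shallow HET embryo gave 20.1 points for HET against WT (exact p = 0.0446).

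Without the 3 doubted libraries, HET exceeded WT by 32.1 points, KO exceeded HET by 27.9 on 30 ppm and KO exceeded WT by 51.1 on 0.1 ppm (5 against 1, smallest possible p 0.167), and the fits called 11150 tiles (KO against WT, and 10966 also without KO replicate 5 on 30 ppm) and 902 (HET against WT). Sex as a further covariate gave 1 call for HET against WT. A minimum of 20 points left 1823 and 1195 calls for KO against WT and HET. The cause of these shifts was not tested. Leaving out each embryo in turn gave 31.7 to 45.4 points for KO against WT, 12.6 to 26.3 for HET against WT (past the threshold without HET replicate 1 or WT replicate 2 on 30 ppm) and 15.9 to 23.4 for KO against HET. HET against WT ranged from 4.48 to 32.0 points on 30 ppm and from 9.21 to 32.1 on 0.1 ppm. NTD against normal KO embryos over all diets ranged from -5.19 to 9.05. By diet the ranges were 23.7 to 51.2 for KO against WT and 12.9 to 27.9 for KO against HET on 30 ppm, both past the threshold without KO replicate 1. On 0.1 ppm they were 28.2 to 51.1 and 12.6 to 25.4, where no exact p can pass. KO on 30 against 0.1 ppm ranged from -17.6 to -4.53, HET from -19.8 to -6.99 and WT from -24.7 to 2.78. The fits called 5395 to 8302 tiles for KO against WT, 4652 to 6110 for KO against HET and 0 to 221 for HET against WT, the most without WT replicate 2 on 30 ppm. With 5 to 75 reads per CpG, 1 embryo's level is known only within wide intervals.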
